A study of Saccharomyces cerevisiae with 13 samples.

Results

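Under histidine starvation, the footprints of colliding ribosomes were set against those of single ribosomes, gene by gene, to see which yeast genes carried more or fewer disomes than their share of monosomes. The comparison took the disome-seq and monosome-seq libraries of the 3-AT experiment, 2 replicates of each, which are 4 of the 13 libraries of the series, of which 10 were analysed. Disome-seq sequences the mRNA stretch protected by a pair of stacked ribosomes, here reads of 55 to 65 nt, and monosome-seq the stretch under a single ribosome, here reads of 20 to 30 nt. All 4 libraries are labelled as strain S288C of Saccharomyces cerevisiae, grown at 30 °C in SC−His medium with 100 mM 3-AT, so there is no untreated group among them. Tables of both assays labelled as strain BY4742 in a rich medium, also at 30 °C, were used where a contrast between media is given, and strain, medium and 3-AT change together there. The tables were joined on the gene, a gene without a row in one of them counted as 0 there, and 5274 genes had at least 1 footprint in the 4 libraries, of which 2275 passed the filter on low counts and were tested.

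3-AT inhibits the product of HIS3, an enzyme of histidine biosynthesis, so that cells in a medium without histidine run short of charged histidyl-tRNA. A ribosome then waits with a histidine codon, CAC or CAT, in its A-site, the place where the next tRNA is decoded. If a following ribosome reaches the waiting one, the pair forms a disome, while a waiting ribosome without a follower leaves a monosome footprint.

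The coding sequences below show where histidine codons lie in genes at both ends of the comparison. They were read from the R64 genome with the RefSeq annotation, 5′ to 3′ on the coding strand, and histidine codons are in capitals. The first 3 are genes without any disome footprint. RPL39 (YJL189W) is shown whole, from its exons at chrX:75933-75938 and chrX:76325-76474 on the plus strand, and holds no histidine codon. VPS60 (YDR486C, chrIV:1428001-1428120, minus strand) has its only histidine codon at position 13, and MSS51 (YLR203C, chrXII:551841-551960, minus strand) has its first 4 at positions 16, 23, 30 and 35, of 17 in all.
RPL39 codons 1 to 52: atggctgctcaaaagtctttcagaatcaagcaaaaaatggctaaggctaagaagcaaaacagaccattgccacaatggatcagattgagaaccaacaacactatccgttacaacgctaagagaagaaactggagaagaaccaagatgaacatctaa
VPS60 codons 1 to 40: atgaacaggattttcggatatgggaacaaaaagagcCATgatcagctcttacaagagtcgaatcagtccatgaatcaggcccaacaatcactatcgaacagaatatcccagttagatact
MSS51 codons 1 to 40: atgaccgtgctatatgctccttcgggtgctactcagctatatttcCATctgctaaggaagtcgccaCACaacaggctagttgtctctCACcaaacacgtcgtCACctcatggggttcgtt
The others are genes with more disome than monosome share. COX4 (YGL187C, chrVII:149704-149856, minus strand) has histidine codons at positions 119, 153, 154 and 155, the last 3 directly before the stop codon. TIM12 (YBR091C, chrII:427257-427391, minus strand) has them at 47 and 71 within the stretch shown and at 94 after it, and SEC11 (YIR022W, chrIX:398934-399023, plus strand) at 83, 89 and 92. PEX14 (YGL153W, chrVII:216498-216587, plus strand) and IES5 (YER092W, chrV:343140-343232, plus strand) each have a single one, at 91 and 123. FES1 (YBR101C, chrII:444163-444252, minus strand) has its first at 163, with others at 248, 262 and 270 after the stretch shown.
COX4 codons 106 to 156: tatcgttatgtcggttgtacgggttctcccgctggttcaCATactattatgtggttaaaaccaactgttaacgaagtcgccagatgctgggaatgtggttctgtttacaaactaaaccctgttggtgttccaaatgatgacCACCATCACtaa
TIM12 codons 32 to 76: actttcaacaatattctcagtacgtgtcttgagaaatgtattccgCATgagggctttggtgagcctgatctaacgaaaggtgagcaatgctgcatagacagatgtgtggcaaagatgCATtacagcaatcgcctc
SEC11 codons 68 to 97: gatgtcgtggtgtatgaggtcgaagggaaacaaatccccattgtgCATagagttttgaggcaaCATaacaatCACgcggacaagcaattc
PEX14 codons 76 to 105: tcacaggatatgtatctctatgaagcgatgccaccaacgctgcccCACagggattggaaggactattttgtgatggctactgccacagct
IES5 codons 96 to 126: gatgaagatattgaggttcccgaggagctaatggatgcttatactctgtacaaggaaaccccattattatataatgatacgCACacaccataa
FES1 codons 148 to 177: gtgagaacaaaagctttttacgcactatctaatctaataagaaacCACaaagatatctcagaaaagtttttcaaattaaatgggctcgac

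The disome-seq libraries held 21133 and 18790 footprints and the monosome-seq libraries 267839 and 230583, or 12.5 monosome footprints per disome footprint. Both assays found 3437 of the genes, disome-seq alone 28 and monosome-seq alone 1809. The last had a median of 12 monosome footprints against 46 in genes found by both, and 43 of them had 100 or more. Of the genes with disomes, 804 rested on a single disome footprint. The disome-seq replicates spread more than the monosome-seq replicates, with a biological coefficient of variation of 0.252 against 0.105. The edgeR test used here gives a gene the same spread in both assays, so its calls are set beside those of limma with a weight for each assay. HIS3, the gene whose product 3-AT inhibits, was read in all 4 libraries, with 76 and 52 disome and 273 and 231 monosome footprints. URA3, intact in S288C and deleted in BY4742 by its stated genotype, went against the strain labels: it had 0 and 0 disome and 3 and 3 monosome footprints in 3-AT, and 5 and 0 disome and 35 and 21 monosome footprints in the rich medium. The strain names used here are those of the labels.

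Of the 2275 genes tested, 259 (11.4%) had more disome footprints than their monosome share and 459 (20.2%) had fewer (edgeR quasi-likelihood test, TMM scaling, adjusted p under 0.05). The 2 replicates of each assay did not overlap in 714 of these 718 genes. The test itself favours genes with separated replicates, and the share over all tested genes is not given, so this is no further support for the calls. Called rises ran from 0.61 to 4.78 on the log2 scale, and 157 of the called falls had no disome footprint at all. With limma and a weight for each assay, 108 genes were higher and 345 lower, and 98 and 327 of the edgeR calls were among them in the same direction. The median log2 fold change of all tested genes was −0.39, and the split of calls depended on the scaling: with the library totals alone 311 were higher and 418 lower, and with uniquely mapped totals as library sizes 41 and 1573. A rise or fall is therefore relative to the other genes of the same library. A gene passed the filter on low counts with about 79.5 CPM in 2 libraries, which is 2 footprints in a disome-seq library and 19 to 22 in a monosome-seq library. Of the 259 genes called higher, 88 passed through disome-seq only, and of the 459 called lower, 332 passed through monosome-seq only, so these were chosen by the assay in which they were high. Of the 1016 genes that passed in both assays, 171 (16.8%) were higher and 127 (12.5%) lower. The plot of disome-seq against monosome-seq levels shows the called genes on either side of the line of equal RPM.

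**Figure D1:**
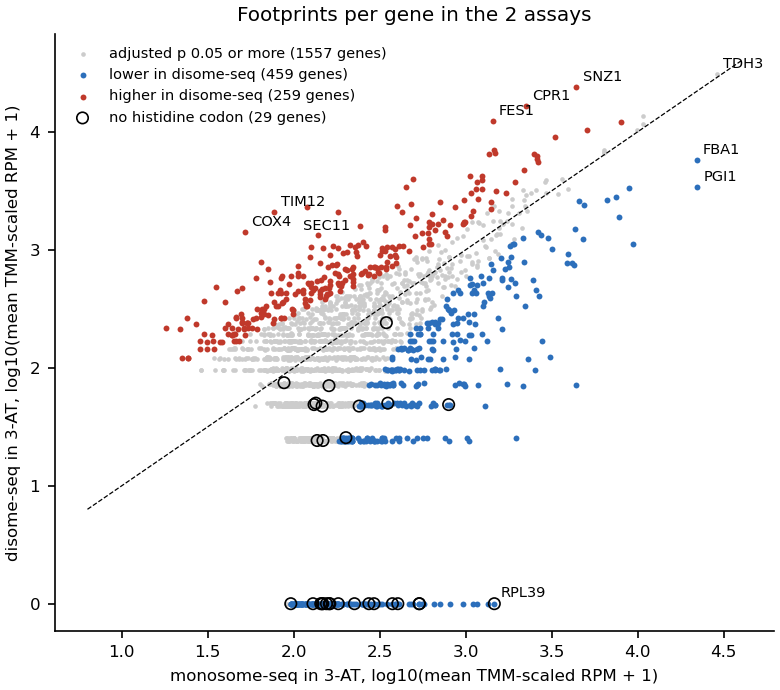
Mean TMM-scaled RPM (read counts scaled to a common library size) of each tested gene in monosome-seq (x axis) and disome-seq (y axis) of the 3-AT experiment, both as log10(RPM + 1), with 2 replicates in each mean. The 259 genes called higher lie above the dashed line of equal RPM and the 459 called lower below it, and 17 of the 29 ringed genes without a histidine codon lie on the bottom edge with no disome footprint.

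The 12 largest rises were picked among called genes with at least 20 disome footprints. Of these, COX4, TIM12, MIY2, HAP2, PEX14, DLS1 and RRP45 passed the filter through disome-seq only, the assay in which they were high, while SEC11, IES5, GPA2, FES1 and SSH4 passed in both. TIM12, a small Tim protein of the mitochondrial inner membrane translocase, had 42 and 45 disome footprints in replicates 1 and 2, against 19 and 17 of monosomes, although the monosome-seq libraries were over 12-fold deeper. Its log2 fold change was 4.75 ± 0.32 (SE, n = 2 per assay, edgeR adjusted p = 2.69e-10). COX4, a subunit of cytochrome c oxidase, had 40 and 20 disome footprints against 11 and 13 of monosomes (log2 fold change 4.78 ± 0.42, edgeR adjusted p = 6.12e-09). Its disome level differed between replicates but stayed far above both monosome levels. SEC11, the catalytic subunit of the signal peptidase, had 53 and 43 disome footprints against 33 and 23 monosome footprints (4.26 ± 0.30, edgeR adjusted p = 3.45e-10).

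IES5, a subunit of the INO80 chromatin remodeling complex, had 49 and 39 disome footprints against 41 and 44 of monosomes, a log2 fold change of 3.53 ± 0.29 (edgeR adjusted p = 3.22e-09). PEX14, which docks cargo receptors at the peroxisome, had 17 and 12 against 17 and 16 (3.29 ± 0.47, edgeR adjusted p = 1.14e-05). Each of these 2 genes has a single histidine codon. GPA2, a G protein alpha subunit of nutrient signaling, had 29 and 27 against 38 and 27 (3.27 ± 0.34), and SSH4, an adaptor of the ubiquitin ligase Rsp5, 18 and 26 against 32 and 27 (3.06 ± 0.38). FES1, a nucleotide exchange factor of cytosolic Hsp70, was by far the most abundant of the group, with 220 and 296 disome footprints against 349 and 326 monosome footprints (3.11 ± 0.24, edgeR adjusted p = 1.2e-09). The remaining members of this group had fewer footprints. The exosome subunit RRP45 had 13 and 11 disome footprints against 14 and 14, DLS1, a subunit of the ISW2 complex, 14 and 6 against 10 and 13, MIY2, a deubiquitinating enzyme, 6 and 14 against 5 and 11, and HAP2, a subunit of the CCAAT-binding factor, 3 and 29 against 18 and 12. HAP2 rested on replicate 2 of disome-seq: without it the log2 fold change was 1.09 (edgeR adjusted p = 0.417), and limma gave an adjusted p of 0.0839. MIY2, DLS1 and RRP45 also lost their call when 1 library was left out, with edgeR adjusted p-values up to 0.235, 0.267 and 0.104.

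The 12 genes with the lowest fitted values had no footprint in either disome-seq replicate and passed the filter through monosome-seq. Their folds are lower bounds, set against 3 footprints over both replicates, so their order follows the monosome footprints and the true order of the falls is not known. RPL39, a protein of the large ribosomal subunit, had 359 and 332 monosome footprints and 0 and 0 disome footprints, at least 20.5-fold lower (edgeR adjusted p = 3.05e-07). MSS51, a translational activator of the mitochondrial COX1 mRNA, had 362 and 272 monosome footprints (at least 18.8-fold lower, edgeR adjusted p = 6.75e-07), and GAS1, a cell wall glucanosyltransferase, 326 and 226 (at least 16.3-fold lower, edgeR adjusted p = 2.2e-06). RCF2, a factor of the respiratory supercomplexes, had 202 and 309 (at least 15.1-fold lower), and RPL37A, of the large ribosomal subunit, 256 and 197 (at least 13.4-fold lower). The bounds of RPF1, SDT1, GPM2, NAT1, VPS60, VMA4 and ZEO1 ran from 7.46-fold to 11.3-fold. Of the 12 genes, RPL39, VMA4 and ZEO1 have no histidine codon at all, and GAS1 and VPS60 have a single one, at codon 100 of GAS1 and at codon 13 of VPS60.

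Several of these genes had many monosome footprints for their mRNA. GPM2, a relative of phosphoglycerate mutase, had 208 and 104 monosome footprints on 29 and 17 mRNA reads, and RPF1, a factor of large subunit assembly, 191 and 189 on 52 and 39, although the mRNA-seq libraries held more reads than the monosome-seq libraries in both replicates. VPS60 had 165 and 101 on 49 and 40. For RPL37A the mRNA reads, 467 and 295, were more than the monosome footprints. Whether a high monosome count for the mRNA had a part in these falls was not tested.

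**Figure D2:**
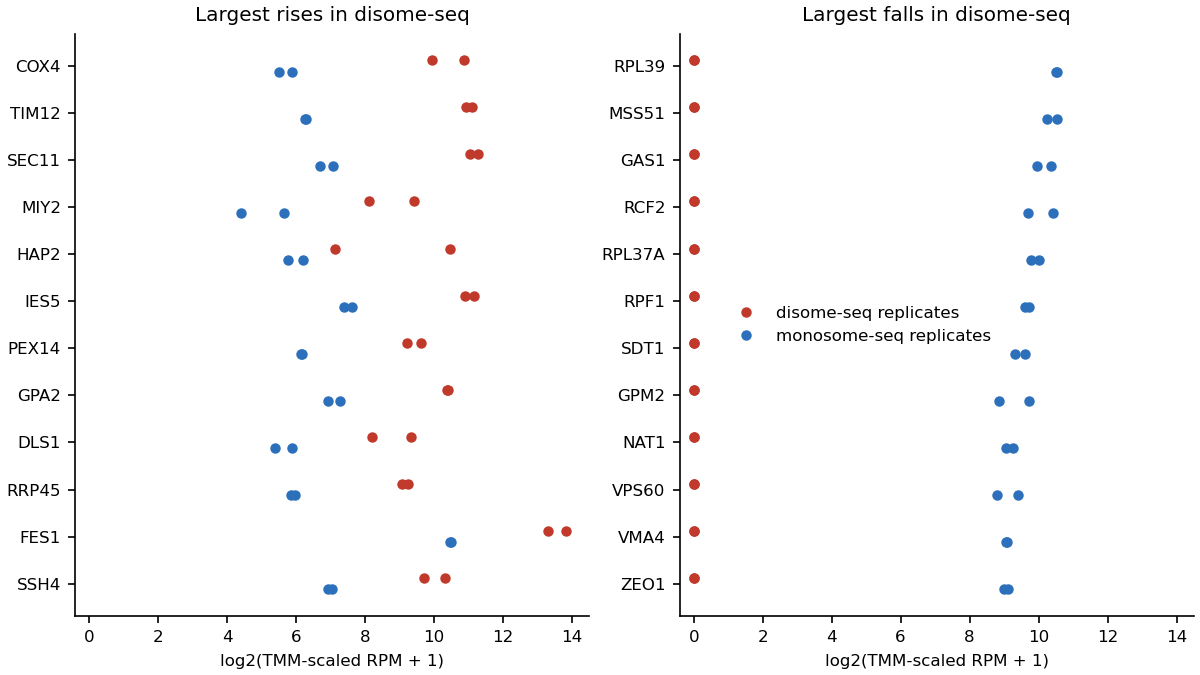
Levels of the 12 largest rises (left) and the 12 falls with the lowest fitted values (right) in each library of the 3-AT experiment, as log2(TMM-scaled RPM + 1) on the x axis, with a point for each replicate of disome-seq (red) and monosome-seq (blue). The red and blue points of each gene do not overlap, the red points of HAP2 are the farthest apart of the rises, and all red points on the right lie at 0.

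Genes without a histidine codon had very few disome footprints in 3-AT. There were 116 such genes with a footprint in either assay, and together they took 0.998% and 1.06% of the monosome footprints of replicates 1 and 2 but 0.114% and 0.117% of the disome footprints. The disome share was 0.112 ± 0.00242 of the monosome share (SD over the disome-seq replicates, n = 2), and it rested on 46 disome and 5108 monosome footprints. In the rich medium the same genes took 3.48% and 3.58% of the disome footprints against 2.51% and 2.54% of the monosome footprints, a ratio of 1.40 ± 0.0265. With 2 libraries against 2, an exact permutation test cannot reach 0.05 for such a share, and none was run.

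Of the 29 genes without a histidine codon that were tested, 21 were called lower and 0 higher by edgeR, 19 and 0 by limma, and 17 had no disome footprint in 3-AT, while 27 had disome footprints in both replicates of the rich medium. The 21 called lower are 72.4% of the 29, beside 20.2% of all tested genes and 37.3% of the 889 that passed through monosome-seq only. Of those 889, 0 were higher, so the 0 higher is no finding about genes without a histidine codon. All 29 passed the filter by their monosome footprints, and the 1 that also passed in disome-seq was not called. The count moved with the setting: DESeq2 called 11 of 29 lower, no filter 20 of 116, and leaving out 1 library 8 of 55 and 10 of 56 (disome-seq replicates 1 and 2) or 4 of 4 and 3 of 3 (monosome-seq replicates 1 and 2), with 0 higher in each. All 29 together had 31 disome beside 3908 monosome footprints in 3-AT, and 1643 beside 26952 in the rich medium. The disome-seq libraries of the rich medium were deeper, with 47391 and 34707 footprints, so counts of the 2 media are not on 1 scale. MBF1, a co-activator that also acts at collided ribosomes, had 1 and 1 disome footprints in 3-AT beside 211 and 165 monosome footprints. In the rich medium it had 33 and 33 beside 428 and 340. Its ratio of scaled disome to monosome footprints in 3-AT was 0.0599 (exact 95% counting interval 0.00722 to 0.218). VMA4, subunit E of the vacuolar proton pump, had 0 and 0 beside 130 and 123 monosome footprints, at least 7.49-fold lower. In the rich medium it had 77 and 29 disome footprints beside 900 and 710 of monosomes. ZEO1, a protein of the plasma membrane periphery, had 0 and 0 beside 126 and 126, at least 7.46-fold lower, and 102 and 40 beside 895 and 690 in the rich medium. RPL30, of the large ribosomal subunit, had 0 and 0 beside 88 and 51, at least 4.12-fold lower, and 100 and 72 beside 2349 and 1562 in the rich medium. Thus 4 genes with disomes in the rich medium had 0 to 2 disomes over both replicates in 3-AT.

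The exception with most footprints was DDR48, a stress protein, which had 4 and 6 disome footprints beside 79 and 83 monosome footprints. Its ratio was 0.695 (exact 95% counting interval 0.327 to 1.31) and was not called (edgeR adjusted p = 0.455). LSB1, an SH3 domain protein with 3 and 0 disome footprints, and SMD1, a core protein of spliceosomal snRNPs with 0 and 3, were also not called. Among genes with at least 30 monosome footprints, 30 of 43 without a histidine codon (69.8%, exact 95% interval 53.9 to 82.8%) had no disome footprint. With the first histidine codon at 2 to 15, 16 to 30, 31 to 60 and 61 or later, 22.9, 16.1, 9.72 and 7.68% had none. In the rich medium, whose disome-seq libraries were deeper, 1 of the 43 had none.

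Among genes with histidine codons, those whose first one lay early in the coding sequence had fewer disomes for their monosomes. This feature was chosen after values of these genes had been seen. Where the first histidine codon lay at codons 2 to 15, 132 of 371 tested genes (35.6%) were lower and 12 (3.23%) higher. Of genes with the first at 16 to 30, 23.5% were lower and 7.47% higher, and with the first at 31 to 60, 15.7% and 12.8%. Where it lay at 61 or later, 100 of 785 (12.7%) were lower and 131 (16.7%) higher. The medians of the log2 fold change, with genes at 0 disomes set to their bound, were −0.99, −0.67, −0.17 and 0.00 in these 4 classes, and −1.27, −0.82, −0.17 and 0.00 as fitted, beside −0.39 for all tested genes. By limma, 103 of the 371 were lower and 6 higher, against 70 and 45 of the 785. Among the 1905 genes that passed by their monosome footprints, of which 24.1% were lower, the percent lower was 41.1, 27.2, 19.0 and 15.7 in the 4 classes. Of these genes, 889 passed through monosome-seq only, the assay in which falls are high. Among genes that passed in both assays, 24.3, 16.8, 10.7 and 8.48% were lower and 6.09, 11.4, 17.7 and 21.9% higher. Their medians were −0.16, −0.18, 0.20 and 0.29, so the classes at 2 to 15 and 16 to 30 were alike there. The percents depended on which genes were tested. With no filter 10.4, 9.41, 8.08 and 6.59% were lower, and with 10 counts in every library 10 of 20, 26 of 50, 28 of 101 and 29 of 117 genes were lower and 3, 11, 39 and 30 higher, so the order did not hold throughout. Leaving out 1 library gave 47 to 60 lower genes in the first class, with 52 and 60 without disome-seq replicates 1 and 2 and 47 and 51 without monosome-seq replicates 1 and 2.

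The shares of footprints, each taken of the total of its library without TMM factors, showed the same order. Shares of 1 library are tied to each other, so a low share of some classes raises those of the others. Genes with the first histidine codon at 2 to 15 took 7.95% and 10.2% of disome footprints and 15.6% and 15.4% of monosome footprints, a ratio of 0.584 ± 0.100 (SD, n = 2). The ratio was 0.713 ± 0.0199 for 16 to 30, 1.18 ± 0.0251 for 31 to 60 and 1.25 ± 0.0375 for 61 or later. In the rich medium the ratios of the 4 classes were 0.835, 1.12, 0.915 and 1.07, and so did not follow this order. The monosome share of the class at 2 to 15 was also below its share of mRNA reads, at 0.776 of it, against 1.06 for the class at 61 or later. The coding sequences of the 4 classes were of like length, with medians of 444, 417, 394 and 436 codons, while genes without a histidine codon had a median of 114.

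**Figure D3:**
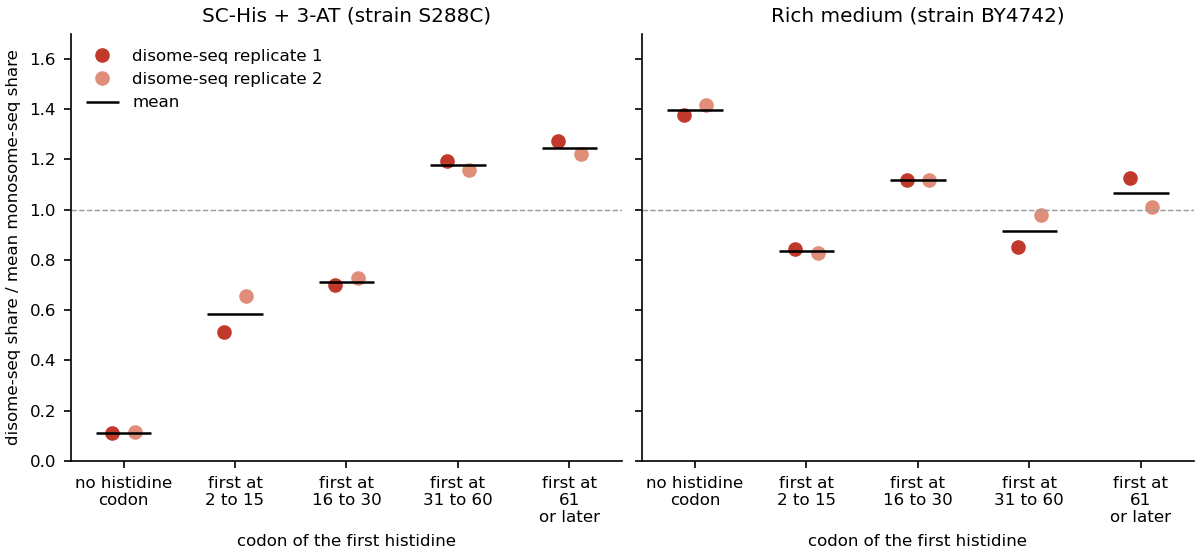
Share of disome-seq footprints divided by the mean share of monosome-seq footprints (y axis) for genes grouped by the codon of their first histidine (x axis), in the 3-AT experiment (left) and in the rich medium (right), with a point for each disome-seq replicate and a bar for the mean. In 3-AT the ratio lies at 0.112 without a histidine codon and rises from 0.584 to 1.25 with later first codons, while in the rich medium it lies between 0.835 and 1.40 with no such order.

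Within ranges of coding length, most of the order was kept. In genes of 151 to 300 codons, the ratio of shares was 0.125 without a histidine codon, 0.482 with the first at 2 to 15, 0.702 at 16 to 30, 1.46 at 31 to 60 and 1.64 at 61 or later. In genes of 301 to 600 codons, the last 4 classes had ratios of 0.627, 0.704, 1.15 and 1.19. Up to 150 codons, the class at 2 to 15 stood above that at 16 to 30, at 0.863 ± 0.0400 against 0.666 ± 0.0526, and above 600 codons the class at 31 to 60 stood at 0.688 ± 0.0943, within the replicate spread of the class at 16 to 30. In finer steps, the share of tested genes called lower was 37.6% with the first histidine codon at 2 to 5, 33.9% at 6 to 10, 35.7% at 11 to 15, 27.1% at 16 to 20, 21.8% at 21 to 30, 18.6% at 31 to 40, 13.7% at 41 to 60, 13.2% at 61 to 100, 11.8% at 101 to 200 and 13.0% at 201 or later. The share called higher rose from 4.30% at 2 to 5 to 18.6% at 61 to 100, but of the 54 genes with the first at 201 or later 1 (1.85%) was higher, and the ratio of shares there was 1.07 against 1.25 at 101 to 200. Across the 2246 tested genes with a histidine codon, which share the same 4 libraries, the Spearman correlation of its first position with the log2 fold change was 0.25. The reads had been aligned to coding sequences, and by the A-site assignment of the methods, the 46th to 48th nt of a 58-nt footprint, a disome waiting at a codon before codon 16 would start upstream of the start codon. The part of this limit in the low disome share of genes with early histidine codons was not tested.

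**Figure D4:**
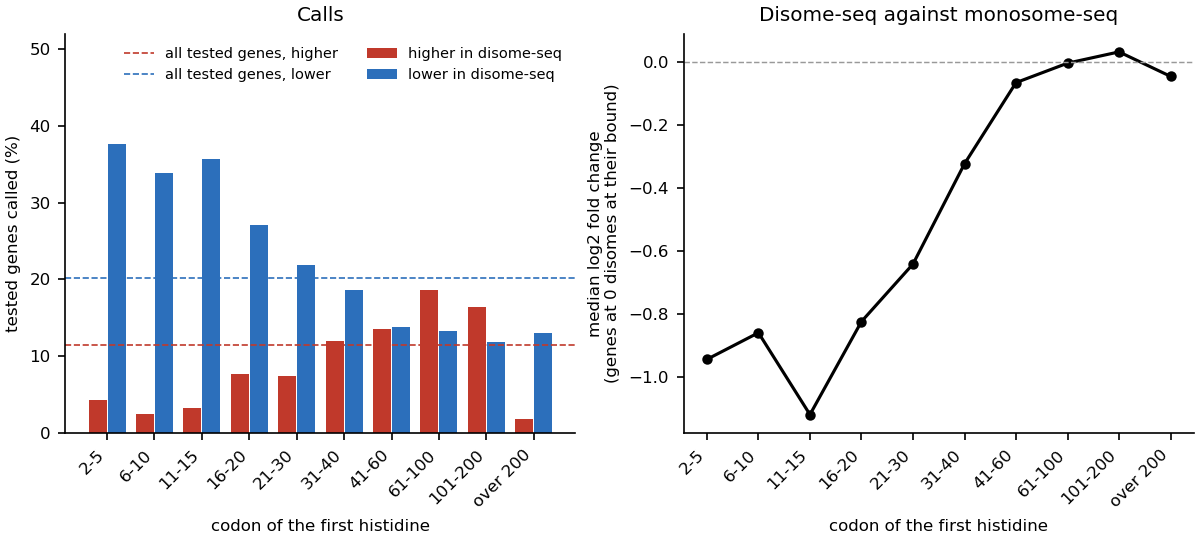
Tested genes grouped by the codon of their first histidine (x axis), with the percent called higher (red bars) and lower (blue bars) in disome-seq and the percent of all tested genes as dashed lines (left), and the median log2 fold change with genes at 0 disomes at their bound (right). The percent called lower falls from 37.6 at codons 2 to 5 to 13.7 at codons 41 to 60, and the median rises to about 0 from codon 41 on.

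Genes with a single histidine codon covered both ends of the comparison. Of 79 tested, 16 were higher and 14 lower, beside 11.4% and 20.2% of all tested genes. All 16 that rose had the codon at position 31 or later, as did 73 of the 79 genes and 11 of the 14 that fell. SNU13, of the spliceosome, with the codon at 66, had 34 and 12 disome footprints beside 41 and 38 monosome footprints (log2 fold change 2.70 ± 0.39). ACP1, the mitochondrial acyl carrier protein, with the codon at 75, had 21 and 22 beside 42 and 28 (2.78 ± 0.37). RPL22A, of the large ribosomal subunit, with the codon at 40, had 0 and 0 beside 99 and 87, and SEC61, the channel of the endoplasmic reticulum, with the codon at 220, 0 and 0 beside 43 and 35. So a late position went with disomes in SNU13 and ACP1 and with none in SEC61 and GAS1. These 4 genes beside GAS1 were chosen after their values had been seen.

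Other features of the histidine codons were compared in the same way. Across 5 equal groups of the tested genes by the histidine share of codons, the medians were −0.53, −0.28, −0.37, −0.35 and −0.44, and the Spearman correlation with the log2 fold change was 0.01. In the lowest of 5 groups by number of histidine codons (0 to 4), 18.0% were higher and 22.9% lower with a median of −0.19, and in the highest (16 to 83), 4.40% and 24.4% with a median of −0.79. That count goes with length: across 5 groups by coding length the percent called higher was 20.7, 12.7, 12.1, 7.69 and 3.74. By the share of CAT among histidine codons, the percent called lower was 25.8 in the lowest of 5 groups and 15.6 in the highest, and the medians were −0.48 and −0.12. The 37 tested genes with a run of 3 or more histidine codons had a median of 0.25. Of these genes, 6 (16.2%) were higher and 4 (10.8%) lower, beside 11.4% and 20.2% of all tested genes. COX4 led these, and the glutamate synthase GLT1, with 4 and 1 disome footprints beside 111 and 114 monosome footprints (−1.99 ± 0.58), was among those that fell.

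The 10 genes with the highest disome level were mostly abundant metabolic enzymes, and 4 of them did not pass the test. TDH3, a glyceraldehyde-3-phosphate dehydrogenase, had 739 and 548 disome footprints, the most of any gene, beside 7229 and 6402 monosome footprints (log2 fold change 0.08 ± 0.23, edgeR adjusted p = 0.817). The glycolytic genes ENO2 (0.33 ± 0.22), PDC1 (0.13 ± 0.22) and CDC19 (0.07 ± 0.23) were also not called. With library totals in place of TMM factors ENO2 was called higher (0.48, edgeR adjusted p = 0.0429), and with 10 counts in every library TDH3, PDC1 and CDC19 were called lower (edgeR adjusted p = 0.0176, 0.0162 and 0.0111). SNZ1, a protein of vitamin B6 synthesis, had 667 and 341 disome footprints beside 1100 and 974 monosome footprints, a log2 fold change of 2.44 ± 0.26 (edgeR adjusted p = 1.76e-07). CPR1, the cytosolic cyclophilin, had 425 and 272 beside 527 and 522 (2.89 ± 0.24, edgeR adjusted p = 3.22e-09). GLN1, glutamine synthetase, rose by 1.45 ± 0.23 (edgeR adjusted p = 3.64e-05). AHP1, a peroxiredoxin, rose by 1.03 ± 0.23 (edgeR adjusted p = 0.00144, limma adjusted p = 0.0843). Without replicate 2 of monosome-seq, its value was 0.59 (edgeR adjusted p = 0.189).

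The genes of histidine biosynthesis, named HIS1 to HIS7 here, went both ways. HIS3, imidazoleglycerol-phosphate dehydratase and the target of 3-AT, had 76 and 52 disome footprints beside 273 and 231 monosome footprints and was higher in disome-seq (log2 fold change 1.51 ± 0.24, edgeR adjusted p = 5.18e-05). HIS4, which carries out several steps of the pathway, had 267 and 243 beside 1944 and 1810 (0.61 ± 0.22, edgeR adjusted p = 0.0349). This call did not hold by limma (adjusted p = 0.075), nor without replicate 1 of disome-seq (edgeR adjusted p = 0.109) or without either monosome-seq replicate (edgeR adjusted p = 0.518 and 0.426). HIS5, the aminotransferase, had 54 and 26 beside 1670 and 1965 and was lower (−2.03 ± 0.28, edgeR adjusted p = 8.59e-06). HIS1, which starts the pathway, had 2 and 0 beside 118 and 107 (−3.30 ± 0.75, edgeR adjusted p = 0.00184), and HIS7, the glutamine amidotransferase, 6 and 5 beside 384 and 345 (−2.55 ± 0.39, edgeR adjusted p = 2.58e-05). The first histidine codon lies at 6 in HIS1 and 5 in HIS7, at 32 in HIS3, 39 in HIS5 and 89 in HIS4. HIS2, with 1 and 0 beside 19 and 33, and HIS6, with 0 and 0 beside 5 and 4, were too shallow to be tested.

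The counts of each list are to be read beside those of all 2275 tested genes, 11.4% higher and 20.2% lower (108 and 345 genes by limma). The lists of the translation machinery differed in their counts. Of 67 tested proteins of the large ribosomal subunit, 33 were lower and 4 higher (28 and 2 by limma), and the list took 1.56% and 1.28% of disome footprints beside 3.11% and 3.13% of monosome footprints. RPL3 had 4 and 1 disome footprints beside 584 and 504 monosome footprints (log2 fold change −4.26 ± 0.46), and RPL20B had 2 and 0 beside 328 and 286 (−4.74 ± 0.62). RPL40B, which also encodes ubiquitin, was among those that rose, with 33 and 32 beside 81 and 78 (2.20 ± 0.29). Of 44 proteins of the small subunit, 22 were lower and 2 higher (10 and 0 by limma), among them RPS7A with 3 and 0 beside 547 and 472 (−4.90 ± 0.54), RPS20 with 2 and 1 beside 219 and 191 (−3.58 ± 0.58) and RPS8A with 0 and 1 beside 520 and 404 (−6.30 ± 0.66). Many of these genes have a near-identical copy, and with reads of multiple alignments discarded their counts are uncertain. Of RPS8A, 25.3% of the 58-nt stretches occur once in the coding sequences. In the large subunit, 9 of the 67 tested genes have no histidine codon and 26 have the first within 30 codons. Among the 33 that fell, these were 8 and 17. The median log2 fold change was −1.92 as fitted and −1.32 with bounds for the large subunit, and −1.76 and −1.70 for the small subunit, against −0.39 for all.

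Of 6 translation elongation factor genes, 4 were lower and 0 higher (2 and 0 by limma). YEF3, elongation factor 3, had 12 and 20 disome footprints beside 1060 and 904 monosome footprints (−2.44 ± 0.30), and TEF4, of elongation factor 1B, 1 and 1 beside 99 and 91 (−3.05 ± 0.74). Of 21 initiation factors tested, 3 were higher and 2 lower, or 14.3% and 9.52% beside 11.4% and 20.2% of all genes. The helicase DED1 had 90 and 88 beside 275 and 228 (2.00 ± 0.23) and GCD2, of eIF2B, 8 and 14 beside 18 and 16 (2.85 ± 0.51), while SUI1, eIF1, had 17 and 14 beside 1134 and 885 (−2.53 ± 0.30). GCD2 lost its call without either monosome-seq replicate (edgeR adjusted p = 0.184 and 0.166) and had passed the filter through disome-seq only. Of 21 cytosolic aminoacyl-tRNA synthetases, 8 were lower and 1 higher (2 and 1 by limma). DED81, for asparagine, had 1 and 4 beside 208 and 199 (−2.84 ± 0.53), MES1, for methionine, 0 and 0 beside 76 and 70 (at least 4.32-fold lower), and THS1, for threonine, 63 and 48 beside 232 and 227 (1.44 ± 0.25).

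Factors that sense or resolve collided ribosomes were lower or not called: of 16 tested, 7 (43.8%, beside 20.2% of all genes) were lower and 0 higher (5 and 0 by limma). Beside MBF1, these included RKR1, a ubiquitin ligase of ribosome quality control, with 0 and 0 beside 80 and 53 (at least 3.94-fold lower), which lost its call without replicate 1 of disome-seq (edgeR adjusted p = 0.0532), and ASC1, the ribosomal scaffold, with 11 and 11 beside 331 and 263 (−1.26 ± 0.34). ASC1 was not called by limma (adjusted p = 0.134) nor without replicate 1 of disome-seq (edgeR adjusted p = 0.0551). Of 23 Hsp70, Hsp90 and co-chaperone genes, 5 were higher and 4 lower, or 21.7% and 17.4% beside 11.4% and 20.2% of all genes. Beside FES1, the stress Hsp70 gene SSA4 had 34 and 34 beside 114 and 110 (1.77 ± 0.28) and the Hsp40 gene SIS1 127 and 135 beside 640 and 581 (1.27 ± 0.22). HSC82, an Hsp90, had 60 and 51 beside 1680 and 1435 (−1.32 ± 0.24), and AHA1, which activates the Hsp90 ATPase, 16 and 16 beside 1087 and 761 (−2.35 ± 0.30). Of 9 chaperonin genes, 2 were lower, both mitochondrial. HSP60 had 5 and 1 beside 169 and 135 (−2.16 ± 0.54; without replicate 2 of disome-seq edgeR adjusted p = 0.0822), and HSP10, without a histidine codon, had 0 and 0 beside 37 and 24 (at least 1.81-fold lower; without replicate 1 or 2 of disome-seq edgeR adjusted p = 0.157 and 0.13).

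**Figure D5:**
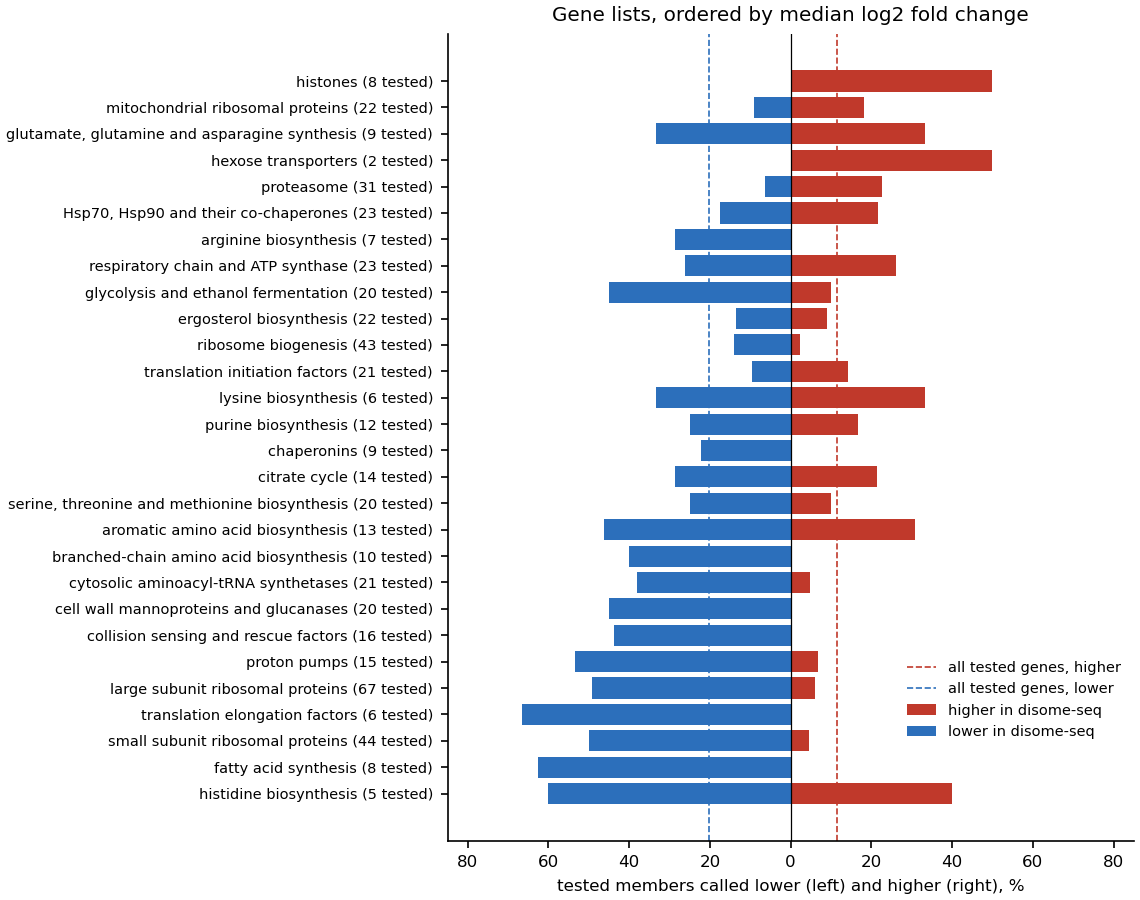
Percent of the tested members of each gene list called lower (blue, to the left) and higher (red, to the right) in disome-seq by edgeR (x axis), with the lists ordered by their median log2 fold change and the percent of all tested genes as dashed lines. The elongation factors, fatty acid and histidine synthesis, both ribosomal subunits and the proton pumps reach 49.3 to 66.7% lower, and the histones 50.0% higher with 4 of 8 genes.

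Enzymes of amino acid synthesis other than histidine were mixed. Of 10 tested genes of branched-chain amino acid synthesis, 4 were lower and 0 higher, among them BAT1, the mitochondrial aminotransferase, with 1 and 2 disome footprints beside 238 and 215 monosome footprints (−3.73 ± 0.57), and LEU1, isopropylmalate isomerase, with 11 and 6 beside 621 and 629 (−2.71 ± 0.35). Of 6 in lysine synthesis, 2 were higher and 2 lower, and LYS20, a homocitrate synthase, had 105 and 64 beside 128 and 104 (3.03 ± 0.26), although 64.6% of its 58-nt stretches occur once, since it resembles LYS21. Of 13 genes for aromatic amino acids, 4 were higher and 6 lower (0 and 2 by limma), with TRP3 at 0 and 3 beside 259 and 177 (−3.67 ± 0.64). Of 20 genes for serine, threonine and methionine, 2 were higher and 5 lower, or 10.0% and 25.0%, near the 11.4% and 20.2% of all genes. SER1, a phosphoserine aminotransferase, had 25 and 27 beside 1294 and 977 (−1.95 ± 0.27). Of 7 arginine genes, 2 were lower and 0 higher. Of 9 genes for glutamate, glutamine and asparagine, 3 were higher and 3 lower. GDH2, glutamate dehydrogenase, rose with 18 and 19 beside 48 and 61 (1.93 ± 0.36), and GLT1, described above, fell but lost its call without replicate 2 of disome-seq (edgeR adjusted p = 0.144) and without replicate 1 of monosome-seq (edgeR adjusted p = 0.0521). Of 12 purine genes, 2 were higher and 3 lower (16.7% and 25.0%), also near the shares of all genes. ADE12, adenylosuccinate synthase, had 166 and 106 beside 309 and 335 (2.24 ± 0.24), and ADE4, the first enzyme of the pathway, 15 and 9 beside 472 and 395 (−1.68 ± 0.33, limma adjusted p = 0.0603).

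In central metabolism, 9 of 20 glycolytic and fermentation genes were lower and 2 higher (5 and 0 by limma). PGI1, phosphoglucose isomerase, had 69 and 74 disome footprints beside 6681 and 3888 monosome footprints (−2.70 ± 0.27), FBA1, aldolase, 136 and 107 beside 6357 and 4107 (−1.93 ± 0.25), and GPM1, phosphoglycerate mutase, 53 and 63 beside 1910 and 1634 (−1.44 ± 0.24). The monosome footprints of PGI1 exceeded its mRNA reads, 1770 and 1144, in both replicates. ENO1, an enolase with a close copy in ENO2, had 70 and 63 beside 401 and 308 (1.08 ± 0.24, limma adjusted p = 0.0564) and lost its call without either monosome-seq replicate (edgeR adjusted p = 0.0634 and 0.168) and with the offset for stretches found once (0.61, edgeR adjusted p = 0.0505). Of 8 fatty acid synthesis genes, 5 were lower and 0 higher, also by limma, and the list took 0.0284% and 0.0585% of disome footprints beside 0.359% and 0.408% of monosome footprints. FAS1 and FAS2, the subunits of fatty acid synthase, had 0 and 1 beside 221 and 254 (−5.35 ± 0.75) and 4 and 1 beside 246 and 248 (−3.13 ± 0.51), and ACC1, acetyl-CoA carboxylase, 1 and 1 beside 212 and 173 (−4.07 ± 0.64). The first histidine codon lies at 13 in FAS1, 11 in FAS2 and 25 in ACC1. Of 14 citrate cycle genes, 3 were higher and 4 lower, or 21.4% and 28.6% beside 11.4% and 20.2% of all genes. CIT2, a citrate synthase, had 136 and 156 beside 366 and 322 (2.26 ± 0.22), and LSC2, of succinyl-CoA ligase, 0 and 0 beside 97 and 95 (at least 5.69-fold lower). Of 23 genes of the respiratory chain and ATP synthase, 6 were higher and 6 lower (26.1% each). Beside COX4, ATP2 had 44 and 40 beside 184 and 118 (1.65 ± 0.27), while ATP4 had 3 and 5 beside 296 and 289 (−2.69 ± 0.44).

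At the cell surface, 9 of 20 genes for mannoproteins and glucanases of the wall were lower and 0 higher (6 and 0 by limma), GAS1 and ECM33 among them. ECM33 has no histidine codon and had 0 and 0 disome footprints beside 101 and 76 monosome footprints (at least 5.24-fold lower). Of 15 proton pump genes, 8 were lower and 1 higher. The plasma membrane pump PMA1 had 15 and 23 beside 1009 and 846 (−2.11 ± 0.29), and VMA10, of the vacuolar pump, 20 and 24 beside 94 and 70 (1.60 ± 0.33). Ergosterol genes had 2 higher and 3 lower of 22, or 9.09% and 13.6% (0 and 0 genes by limma), with ERG3 at 8 and 7 beside 350 and 251 (−1.82 ± 0.38, limma adjusted p = 0.124). Of 31 proteasome genes, 7 were higher and 2 lower (2 and 1 by limma), or 22.6% and 6.45% beside 11.4% and 20.2% of all genes. By limma 108 of all 2275 genes were higher. RPT3, an ATPase of its base, had 18 and 21 beside 52 and 39 (2.27 ± 0.36), and PUP1, of its core, 23 and 22 beside 71 and 53 (2.03 ± 0.33). Of 8 histone genes, 4 were higher and 0 lower (2 and 0 by limma), with HTB1, an H2B, at 27 and 22 beside 65 and 54 (2.21 ± 0.32) and HHF2, an H4 with a near-identical copy, at 12 and 13 beside 22 and 27 (2.51 ± 0.47). HHF2 lost its call without either monosome-seq replicate (edgeR adjusted p = 0.135 and 0.101). Mitochondrial ribosomal proteins had 4 higher and 2 lower of 22, ribosome biogenesis factors 1 and 6 of 43, and hexose transporters 1 and 0 of 2.

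The disome excess in 3-AT was also set against that in the rich medium, as an interaction of assay and medium over 8 libraries. Of 2871 genes tested, 78 (2.72%) had a larger disome excess in 3-AT and 426 (14.8%) a smaller one (edgeR, adjusted p under 0.05). This split moved with the scaling: with library totals alone it was 191 and 182, with DESeq2 size factors 116 and 273, and the median over all genes moved from −0.77 to 0.04 and −0.33. Of 55 genes without a histidine codon, 29, 21 and 24 were called lower in these 3 scalings and 0 higher in each. Of the genes with the first histidine codon at 2 to 15, 109, 51 and 80 of 545 were lower and 3, 12 and 7 higher. CPR1 had 2.52 ± 0.34 more on the log2 scale in 3-AT (edgeR adjusted p = 2.49e-11) and SEC11 5.78 ± 0.89 (edgeR adjusted p = 5.8e-09). HIS1 had −4.53 ± 0.80 (edgeR adjusted p = 7.24e-07) and HIS7 −4.02 ± 0.60 (edgeR adjusted p = 2.61e-09), and FES1, at 1.19, did not pass the test (edgeR adjusted p = 0.0806). Since the groups are labelled with different strains and also differ in 3-AT and histidine, the parts of these factors cannot be told apart.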

How the data were processed

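Disome-seq and monosome-seq of strain S288C in SC−His with 3-AT were analysed with 2 replicates each, beside both assays in the rich medium (strain BY4742) and mRNA-seq in 3-AT. Per the submitters' processing notes, reads were trimmed with cutadapt 1.16, freed of rRNA reads with Bowtie 1.2.2 and aligned with TopHat2 2.1.1 to R64 coding sequences, and the authors discarded multiple alignments. The deposited tables hold counts of reads per gene within a length class, without normalization, so their totals are not whole-library depths. Per the study's methods, reads alike in length, sequence and molecular identifier were counted once. The 3-AT monosome-seq footprints analysed here exceed the uniquely mapped reads stated by the study. Whether the deposited counts were collapsed in this way is therefore not known. Low depth limits what 0 disomes can show: 3 footprints over both replicates were taken as the floor, and intervals and floors cover counting error only.

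Counts were fitted with edgeR 4.0.16 in R 4.3.3 (TMM factors, default filter by group, quasi-likelihood F test, Benjamini-Hochberg at 0.05), the 4 libraries of 3-AT together, and 8 libraries for the interaction. The test was also run on simulated data, and the outcome is not reported here. Alternatives were limma 3.58.1, DESeq2 1.42.0, other scalings and filters, a replicate block, an offset for stretches found once and each library left out. The labels do not say that replicates came from separate cultures, so p-values measure the spread between these libraries. Named genes are the 12 highest fitted values with at least 20 disome footprints and the 12 lowest with at least 100 monosome footprints among called genes whose replicates do not overlap, the 10 genes with the highest disome level, HIS1 to HIS7 and at most 3 called genes per list and direction, besides those said to be chosen later. Members and the 28 gene lists were chosen with earlier results of these data known. Of the joined genes, 5271 of 5274 were in the annotation. LEU2 and LYS2 were not analysed here. The mRNA-seq table of the rich medium and the control library were not used here. Tables were made with Python 3.11.15, pandas 2.3.3 and scipy 1.17.1, and figures with matplotlib 3.10.9.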

Additional observations from a re-analysis of the deposited data

Results flagged for a closer look

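The contrast of disome-seq with monosome-seq differed between media in 20 of 37 named genes (edgeR interaction test over 8 libraries, adjusted p under 0.05). These 37 had been named for their size of change, their disome level or histidine biosynthesis. Most were picked as the largest rises or falls in 3-AT, and the 3-AT contrast is itself part of the interaction. A difference between media was thus partly built in by the choice, and no conclusion is drawn from the count. Of all 2871 genes tested, the contrast was larger in 3-AT for 78 (2.72%) and smaller for 426 (14.8%). On the log2 scale the contrast was larger in 3-AT than in the rich medium for COX4 (3.51), TIM12 (3.19), SEC11 (5.78), IES5 (4.43), PEX14 (2.57), GPA2 (2.19), RRP45 (4.79), SSH4 (3.30) and CPR1 (2.52). It was smaller for HIS1 (−4.53) and HIS7 (−4.02). It was also smaller for genes with no disome footprint in 3-AT, whose fitted values depend on the prior count and are no bounds: RPL39 (−10.41), MSS51 (−9.56), GAS1 (−9.78), RCF2 (−9.01), RPL37A (−7.71), RPF1 (−10.12), NAT1 (−7.75), VMA4 (−10.21) and ZEO1 (−10.64). With library totals in place of TMM factors, RCF2, RPL37A and NAT1 did not pass the test (edgeR adjusted p = 0.0543, 0.0757 and 0.109), and the other 17 did. Strain, medium and 3-AT cannot be told apart here.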

How the results depend on the processing

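The numbers of calls moved with depth, filter and tool. Among alternatives set beforehand, 41 genes were higher and 1573 lower with uniquely mapped totals, 83 and 93 when 10 counts were asked for in every library, and 108 and 345 with limma. DESeq2 gave 183 higher and 232 lower. Leaving out 1 library gave 66 to 170 higher and 157 to 213 lower, on other numbers of tested genes. For the interaction, 504 genes were called in all, 56 with 10 counts in every library, and 276 to 407 with 1 library left out, the fewest without replicate 2 of monosome-seq in the rich medium and 310 without that in 3-AT. Of the 88 named genes, 84 were called, and 77 of these were also called by limma. Most had been picked as called genes with large changes or small p-values, so these counts follow from the choice. Of all edgeR calls, limma kept 98 of 259 rises and 327 of 459 falls. With mapped totals the direction of 11 named genes turned: TDH3 (−1.44), ENO2 (−1.20), HIS4 (−0.93), PDC1 (−1.41), CDC19 (−1.45), AHP1 (−0.51), GLN1 (−0.0815), HIS3 (−0.0209), ENO1 (−0.47), THS1 (−0.101) and SIS1 (−0.28). With 10 counts in every library it turned for TDH3 (−0.63), HIS4 (−0.097), PDC1 (−0.58) and CDC19 (−0.64). These totals and filters shift all genes together, by −1.55 with mapped totals. The mapped totals stated for monosome-seq are below the footprint totals analysed here. They are not depths of these counts, and no conclusion is drawn from the 11 turned genes.

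Deviations of same-numbered libraries correlated at −0.02 over all tested genes and −0.14 over the 363 with at least 20 disome footprints. Counting noise at low disome depth can hide a pairing, so whether same-numbered libraries belong together is not known. With the replicate block 198 genes were higher and 322 lower, and 343 in the interaction. With the numbers crossed, an alternative added after seeing the data, 199 were higher and 277 lower. Among named genes the block ended the calls of HIS4 and HSP10 (edgeR adjusted p = 0.0621 and 0.0559). The ratio of shares of genes without a histidine codon, 0.112, was 0.109 to 0.116 with 1 library left out and, these too being alternatives added later, 0.09 among genes with at least 95% of stretches found once, 0.131 among genes of at least 100 codons and 0.164 without the 5 genes with most monosome footprints. That of genes with the first at 2 to 15 ranged from 0.513 to 0.655 under its alternatives. The spread of 2 disome-seq replicates and 39923 disome footprints in all limit the size of fall that can be seen in genes with few monosomes.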
